A study of Mus musculus with 9 samples.

Results

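The 9 genes described here build, cut or bind hyaluronan, and were taken by symbol from the 55471 genes listed for each culture of mouse articular chondrocytes. They are the hyaluronan synthases Has1, Has2 and Has3, the degrading genes Hyal1, Hyal2 and Cemip, the receptor Cd44, and the matrix genes Tnfaip6 and Vcan. All 9 passed the filter on low counts that left 15362 genes for testing. RNA was sequenced from 9 cultures in 3 groups of 3. The cells were isolated from knee joint cartilage of wild-type mice at postnatal day 5, and according to the methods of the study every plate was coated with COLpep, a collagen-II peptide that binds the receptor OSCAR. Control cells are, by those methods, infected with the adenovirus Ad-Control. Ad-OSCAR cells were infected with an adenovirus that makes them express OSCAR, and Ad-OSCAR + 5-ASA cells were infected in the same way and then given 10 µM 5-aminosalicylic acid (5-ASA), an anti-inflammatory drug. The sample labels give 3 days of culture, infection for 2 h at 400 MOI (multiplicity of infection, infectious virus particles per cell) and 36 h before the drug, whereas the methods give 2 days, 800 MOI and a further 24 h with or without the drug. No 5-ASA was given to cells without Ad-OSCAR, so the drug is seen here only on top of OSCAR. Neither the labels nor the methods say whether the cultures of a group came from separate animals. The methods state in general that n counts biologically independent samples, without naming these cultures. All p-values measure the spread between these cultures, which may be technical.

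Hyaluronan is a long unbranched sugar chain that synthases in the plasma membrane make from UDP-glucuronic acid and UDP-N-acetylglucosamine and push out of the cell as it grows. In cartilage it is the backbone on which aggrecan is assembled, and CD44 ties this assembly to the chondrocyte surface. The chain is cut outside the cell with the help of CEMIP and at the surface by HYAL2, and taken-up pieces are cut in lysosomes by HYAL1. TSG-6, the product of Tnfaip6, transfers protein chains onto hyaluronan in inflamed tissue, and versican, the product of Vcan, is a large proteoglycan that binds it.

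Total estimated counts ranged from 19733448 to 28192740 per culture. Pearson's r of log2 CPM between cultures of a group was 0.9909 to 0.9932, and between cultures of different groups 0.9324 to 0.991. Oscar had 3 to 4 counts per Control culture, 173445 to 187278 per Ad-OSCAR culture and 80766 to 94199 per Ad-OSCAR + 5-ASA culture, so OSCAR RNA itself was 1.96-fold lower with the drug. All 10 chondrocyte markers were above 1 CPM in Control, and their summed level fell from 37623 to 43258 CPM there to 2128 to 2478 CPM with OSCAR and 2606 to 3054 CPM with 5-ASA added. The 8 markers of macrophages and other leukocytes summed to 15.6 to 18.3, 35.6 to 36.4 and 29.7 to 31 CPM in the 3 groups. Cd14 and Cd68 held most of this, while Ptprc, which defines leukocytes, had at most 2 counts in any culture. The 7 markers of fibroblasts and synovial lining summed to 13570 to 14402, 10760 to 11609 and 12771 to 13907 CPM, but these went different ways. From Control to Ad-OSCAR the mean of Col1a1 went from 9195 to 2895 CPM, whereas Col3a1 went from 4253 to 7009, Prg4, which encodes the lubricin of the joint surface, from 247 to 897 and Pdpn from 116 to 283 CPM, and the other 3 were lower. The 5 markers of endothelium summed to at most 0.475 CPM and the 5 of skeletal muscle to at most 1.11 CPM. The part of the marker shifts and of the lower OSCAR RNA in the results below was not tested, and in bulk RNA fewer cells of a type and less RNA per cell cannot be told apart.

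Has1 turned out to differ between groups in its transcripts as well as in its level, so the site where its annotated transcripts part is shown first. GENCODE M21 lists exactly 2 transcripts of Has1 (chr17:17843323-17855205, GRCm38, minus strand), the protein-coding Has1-201 with 5 exons and 2095 bases, and Has1-202, an RNA of 2 exons and 3541 bases that keeps intron sequence and is not annotated as coding. They share the end of exon 2 (chr17:17849941-17849980), printed in lower case, and differ in what follows, printed in capitals. In Has1-201 these are the first bases of exon 3 (chr17:17848334-17848373), and in Has1-202 they are the first bases of the intron (chr17:17849901-17849940), starting with the GT of the splice donor.
Has1-201: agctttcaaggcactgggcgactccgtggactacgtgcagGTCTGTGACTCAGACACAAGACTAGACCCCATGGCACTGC
Has1-202: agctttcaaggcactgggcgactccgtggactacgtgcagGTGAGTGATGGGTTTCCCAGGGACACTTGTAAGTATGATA

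Promoters of 7 of the 9 genes, all but Has2 and Has3, were found among the 32851 mouse promoters of RefSeq (GRCm38.p6), and the 250 bases before each start were searched on both strands for motifs of factors that act in inflammation and for a TATA box. Matches were found in 4 of the 7. All 7 genes searched rose with OSCAR, so the matches cannot be set against genes that did not rise. Has1 and Tnfaip6 are shown as the 2 genes with a match that rose the most, with the match in capitals. The Has1 stretch (chr17:17855206-17855438) holds a cAMP response element (TGACGTCA) 83 bases before the RefSeq start, as did 1.55% of all promoters. The Tnfaip6 stretch (chr2:52037863-52038008) holds an AP-1 site (TGANTCA) 142 bases before the start, as did 6.75% of all promoters. Both stretches are printed on the gene's strand and end where the GENCODE gene begins.
Has1 promoter: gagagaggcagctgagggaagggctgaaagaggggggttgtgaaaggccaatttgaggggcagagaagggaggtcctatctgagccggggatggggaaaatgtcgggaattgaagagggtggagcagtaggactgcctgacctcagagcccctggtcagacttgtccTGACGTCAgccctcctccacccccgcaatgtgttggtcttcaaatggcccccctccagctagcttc
Tnfaip6 promoter: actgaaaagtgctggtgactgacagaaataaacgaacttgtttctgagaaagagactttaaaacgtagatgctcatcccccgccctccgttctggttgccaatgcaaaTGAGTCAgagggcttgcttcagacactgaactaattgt
Among the 7 promoters, Hyal2 alone matched an NF-kB motif (238 bases before the start; 7.25% of all promoters) and Cemip alone a TATA box (TATAAA, 29 bases before the start; 12.4% of all promoters). None matched the C/EBP motif TTGCNNAA, which 9.56% of all promoters held, and no match overlapped another. These matches describe letters and do not show binding.

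Compared with Control, OSCAR overexpression upregulated 7 of the 9 genes and downregulated 1. Vcan, Has1 and Hyal1 rose the most, Has2 fell, and Has3 did not pass the test. Expression differed at an adjusted p below 0.05 (edgeR quasi-likelihood test, Benjamini-Hochberg over all genes) for 8 of 9 genes, against 65.0% of all genes tested, 32.7% higher and 32.2% lower. The 3 values of the groups did not overlap for the same 8 genes, against 69.0% of all genes, so being changed does not in itself set these genes apart. Their median log2 fold change was 0.52, against 0.02 over all genes. None passed the study's limit of a log2 fold change beyond 1.5 with edgeR or DESeq2, which 9.96% of all genes passed with edgeR. The levels below are CPM, counts scaled to the library by TMM, which compare 1 gene between cultures. Levels of different genes are compared in TPM, transcript numbers scaled to length and library, and in CPM only as an alternative for the synthase shares.

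**Figure D1:**
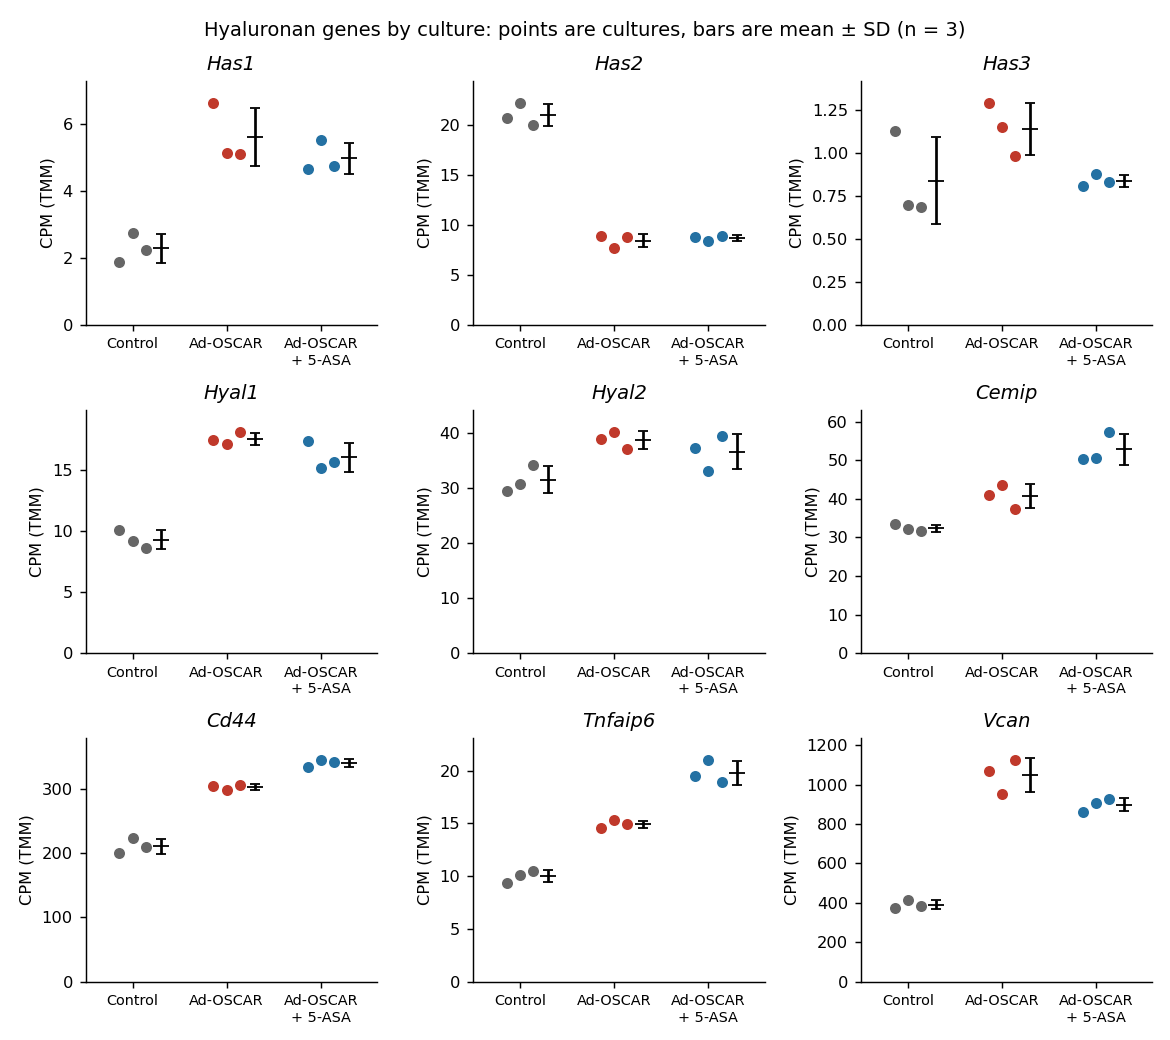
CPM of each of the 9 genes (vertical axes, starting at 0) in every Control, Ad-OSCAR and Ad-OSCAR + 5-ASA culture, with the mean and SD of each group (n = 3) to the right of its points. Has2 lies at 20 to 22.2 CPM in Control and below 9 in every culture with Ad-OSCAR, Vcan and Has1 lie above Control in all of those, and Tnfaip6, Cemip and Cd44 climb in 2 steps.

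The synthases moved in opposite directions. Has2 (chr15:56665627-56694539), the synthase most linked to cartilage hyaluronan, measured 20.7, 22.2 and 20 CPM in the Control cultures and 8.89, 7.67 and 8.77 CPM in the Ad-OSCAR cultures, a fall without overlap. It was 2.48-fold lower (log2 fold change -1.31 ± 0.08 SE, adjusted p = 7.04e-11). Has1, the least active synthase in most cell types, measured 1.89, 2.75 and 2.22 CPM in Control and 6.62, 5.13 and 5.09 CPM in Ad-OSCAR cultures. Every Ad-OSCAR culture was above every Control culture, and Has1 was 2.44-fold higher (log2 fold change 1.29 ± 0.16 SE, adjusted p = 1.61e-06). This rests on 40 to 67 estimated counts per Control culture and 125 to 195 per Ad-OSCAR culture. Has3 (chr8:106870242-106884566), which makes shorter chains, measured 1.13, 0.699 and 0.687 CPM in Control and 1.29, 1.15 and 0.982 CPM with OSCAR. These overlapped, and with 13 to 38 counts per culture the interval of its log2 fold change (0.44, 95% interval -0.13 to 1.02, adjusted p = 0.164) held both no change and a doubling. Has2 overlaps the antisense gene Has2os, which had 14 to 24 counts per Control culture and 5 to 7 per Ad-OSCAR culture, and Has3 overlaps Chtf8 on the opposite strand. Whether the counting used strand is not given in the sources used here.

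Per length, Has2 was the main synthase RNA in Control, while in every Ad-OSCAR culture Has1 lay above it when both Has1 transcripts were counted. Has2 held 85.5, 83.3 and 84% of the summed TPM of the 3 synthases in Control, and 40.1, 42.1 and 46.6% in Ad-OSCAR cultures. The Has1 share was 11.2, 14.9 and 14% in Control and 55.8, 53 and 49.7% with OSCAR, a rise of 39.5 percentage points with no overlap. An exact two-sided permutation test gave p = 0.1 for each share, which is the smallest value that 3 cultures against 3 can give. The summed TPM of the 3 synthases was 10.1 ± 0.692 (SD, n = 3) in Control and 8.18 ± 0.983 (SD, n = 3) in Ad-OSCAR cultures, a ratio of 0.807 without overlap (exact permutation p = 0.1). Synthase activity and hyaluronan itself were not measured in these libraries.

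In the estimated transcript levels, the rise of Has1 lay in its protein-coding transcript. The deposited files give, for each gene and culture, the mean length of its transcripts weighted by their estimated abundance, and with exactly 2 transcripts this length fixes the share of each. For Has1 it was 3010, 2985 and 2891 bases in Control and 2351, 2345 and 2401 bases with OSCAR. The share of Has1-201 in Has1 TPM was accordingly 36.7, 38.5 and 44.9% in Control, and 82.3, 82.7 and 78.8% in Ad-OSCAR cultures. Every OSCAR culture thus stood above every Control culture (exact permutation p = 0.1). Has1-201 went from 0.546 ± 0.124 TPM (SD, n = 3) to 3.53 ± 0.64 TPM (SD, n = 3), a ratio of 6.47, while Has1-202, the form printed with intron bases above, was at 0.814 ± 0.165 and 0.807 ± 0.122 TPM (SD, n = 3 each). With Has1-202 left out, Has1-201 held 47.7 ± 3.64% and Has2 47.7 ± 3.98% of the remaining synthase TPM in Ad-OSCAR cultures (SD, n = 3 each), with overlap, and Has2 was the higher of the 2 in Ad-OSCAR culture 3. Among the 327 tested genes with 1 coding and 1 retained-intron transcript that differ by at least 200 bases, 7.34% had a coding share that was higher with OSCAR without overlap, and 8.87% one that was lower. These shares are estimates from few reads, and reads within the part common to both forms were divided by the authors' counting program.

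**Figure D2:**
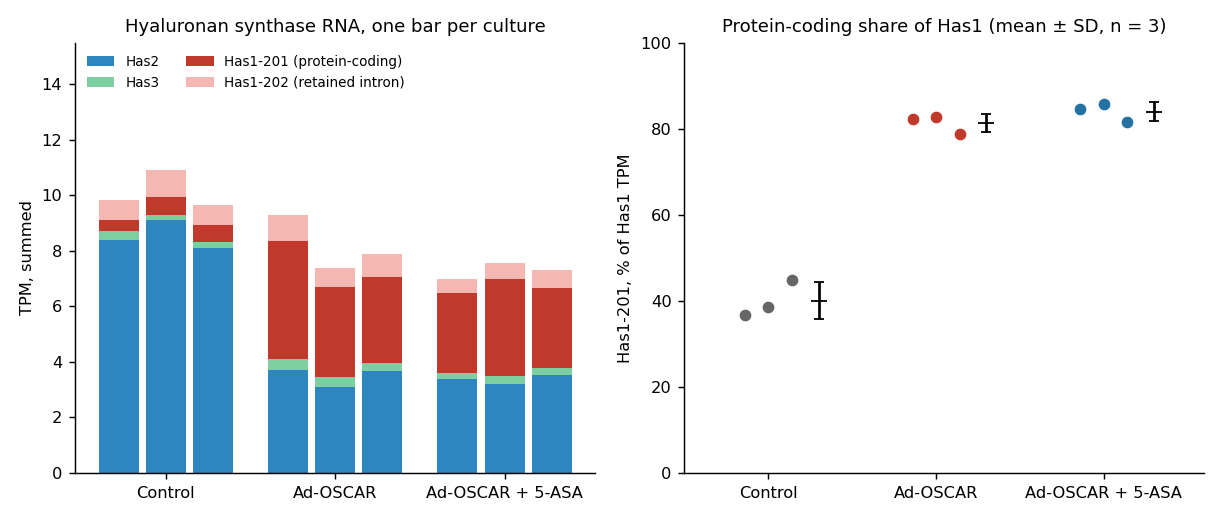
Left, summed TPM of the synthases with 1 stacked bar per culture, Has1 divided into the protein-coding Has1-201 and the intron-keeping Has1-202. Right, percent of Has1 TPM held by Has1-201 in each culture, with mean and SD (n = 3). Has2 fills most of each Control bar, Has1-201 takes up much of each Ad-OSCAR bar, and the coding share moves from 36.7 to 44.9% up to 78.8 to 82.7%.

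With the length of each gene in each culture taken into account, Has1 and Vcan, and no other of the 9 genes, passed the study's limit with OSCAR, at log2 fold changes of 1.65 and 1.55. Of the 7 genes with more than 1 transcript, Has1 was the only one whose weighted length did not overlap between Control and Ad-OSCAR. Among all 12716 such genes 16.2% did not overlap, and 1 of 7 is near that share. Vcan, whose splice forms differ in the long stretches that carry chondroitin sulfate, had a mean length of 8213 ± 423 bases (SD, n = 3) in Control and 7603 ± 231 (SD, n = 3) with OSCAR, and these overlapped (exact permutation p = 0.2). Cd44, known for its many splice forms, was at 3577 ± 40.9 and 3626 ± 63.8 bases (SD, n = 3 each), also with overlap (exact permutation p = 0.4).

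All 3 genes of breakdown rose with OSCAR. Hyal1 (chr9:107576927-107581710), the lysosomal hyaluronidase, measured 10.1, 9.2 and 8.56 CPM in Control and 17.4, 17.1 and 18.1 CPM with OSCAR, well apart. It was 1.88-fold higher (log2 fold change 0.91 ± 0.08 SE, adjusted p = 1.84e-08). Hyal1 shares bases of the same strand with Naa80, which went from 208 to 288 counts in Control to 562 to 751 with OSCAR, so the division of reads between them is uncertain. Cemip (chr7:83932857-84086502), needed for cutting large hyaluronan outside the cell, measured 33.5, 32.1 and 31.7 CPM in Control and 40.9, 43.7 and 37.4 CPM with OSCAR. It rose 1.25-fold, without overlap (log2 fold change 0.32 ± 0.07 SE, adjusted p = 0.000296). Hyal2 (chr9:107567945-107572779), a hyaluronidase anchored at the cell surface, measured 29.5, 30.7 and 34.2 CPM in Control and 38.8, 40.2 and 37.1 CPM with OSCAR. The groups were apart by a small gap, and Hyal2 was 1.23-fold higher (log2 fold change 0.30 ± 0.07 SE, adjusted p = 0.000803). Hyal2 overlaps the antisense gene Gm9917, at 74 to 92 counts in Control and 101 to 154 with OSCAR.

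The 3 genes that bind hyaluronan also rose, Vcan by far the most. Vcan (chr13:89655312-89742509) measured 374, 415 and 384 CPM in Control and 1071, 954 and 1124 CPM with OSCAR, more than doubling in every culture. It was 2.69-fold higher (log2 fold change 1.43 ± 0.06 SE, adjusted p = 1.64e-13). Tnfaip6 (chr2:52038009-52056686), a gene switched on by inflammatory cytokines, measured 9.39, 10.1 and 10.5 CPM in Control and 14.6, 15.3 and 14.9 CPM with OSCAR. It rose 1.49-fold without overlap (log2 fold change 0.58 ± 0.08 SE, adjusted p = 3.43e-06). Cd44 (chr2:102811141-102901665) measured 199.8, 223 and 210.2 CPM in Control and 304, 298 and 307 CPM with OSCAR, again without overlap. It was 1.44-fold higher (log2 fold change 0.52 ± 0.05 SE, adjusted p = 1.2e-08). Vcan overlaps the antisense gene Gm4117 and the pseudogene Gm16318, each at 85 counts or fewer in any culture.

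The order of the levels in TPM changed accordingly. In Control, Cd44 stood highest at 103 ± 5.06 TPM (SD, n = 3), followed by Vcan at 80.3 ± 5.85, Hyal2 at 36.4 ± 2.72 and Tnfaip6 at 10.9 ± 0.63. Has2 and Cemip came next at 8.54 ± 0.509 and 8.41 ± 0.33 TPM, with overlapping values, and below them Hyal1 at 5.9 ± 0.545, Has1 at 1.36 ± 0.265 and Has3 at 0.24 ± 0.0693. With OSCAR, Vcan overtook Cd44 (238 ± 16.9 against 148 ± 7.33 TPM), Hyal1 overtook Cemip (11.3 ± 0.231 against 10.5 ± 0.446), and Has2 dropped below Has1 with both its transcripts counted (3.5 ± 0.341 against 4.34 ± 0.73). No neighbours in this order overlapped in the Ad-OSCAR cultures, but the coding Has1-201 alone, at 3.53 ± 0.64 TPM, overlapped with Has2.

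5-ASA changed 4 of the 9 genes relative to Ad-OSCAR, and 3 of these rose further. At an adjusted p below 0.05 (edgeR quasi-likelihood test), Tnfaip6, Cemip and Cd44 were higher and Vcan was lower, against 17.8% of all genes tested (10.4% higher and 7.38% lower). The groups did not overlap for these 4 genes and Has3, against 33.8% of all genes. With edgeR as with DESeq2, 0 of the 9 had a fold change beyond 1.5 with an unadjusted p below 0.05, which 4.15% of all genes had. The methods of the study give these limits for 5-ASA, and as worded there the treated cells were set against Ad-Control cells and not against untreated Ad-OSCAR cells. The median log2 fold change of the 9 genes was -0.08, against -0.00 over all genes.

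Tnfaip6 measured 19.5, 21 and 18.9 CPM with 5-ASA against the 14.6 to 15.3 CPM of Ad-OSCAR cultures. All treated cultures were above all untreated ones, and the gene rose 1.33-fold (log2 fold change 0.41 ± 0.07 SE, adjusted p = 0.000425). Cemip measured 50.4, 50.7 and 57.4 CPM against 37.4 to 43.7 CPM, likewise apart, and rose 1.3-fold (log2 fold change 0.38 ± 0.06 SE, adjusted p = 0.000276). For both, the step with the drug went the same way as the step with OSCAR, so that treated cells stood farthest from Control. Cd44 measured 334, 345 and 342 CPM against 298 to 307 CPM, a smaller rise of 1.12-fold (log2 fold change 0.17 ± 0.05 SE, adjusted p = 0.0147). This Cd44 call was lost without Ad-OSCAR culture 1 or 2 (adjusted p = 0.054 and 0.0532) and when TPM were tested with limma (adjusted p = 0.477).

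Vcan was the gene that moved back with the drug. It measured 859.9, 908 and 927 CPM with 5-ASA against 954 to 1124 CPM without, and 374 to 415 CPM in Control. The treated cultures lay below all untreated Ad-OSCAR cultures but still far above Control, and the fall was 1.17-fold (log2 fold change -0.23 ± 0.06 SE, adjusted p = 0.00877). The call was lost without Ad-OSCAR culture 3 (adjusted p = 0.0502) or without Ad-OSCAR + 5-ASA culture 1 (adjusted p = 0.0621).

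The synthases did not pass the test for the drug. Has2 measured 8.81, 8.35 and 8.93 CPM with 5-ASA, overlapping with the Ad-OSCAR cultures, and its log2 fold change of 0.04 had a 95% interval of -0.15 to 0.22. With OSCAR, Has2 fell by 1.31 on the log2 scale. Has1 measured 4.65, 5.51 and 4.74 CPM, overlapping with Ad-OSCAR (log2 fold change -0.18, 95% interval -0.47 to 0.12), and Has3 measured 0.808, 0.876 and 0.83 CPM, just below all Ad-OSCAR cultures (log2 fold change -0.44, 95% interval -1.0 to 0.11, adjusted p = 0.279). The Has1 share of synthase TPM was 50.2 ± 3.21% (SD, n = 3) with the drug and 52.8 ± 3.07% (SD, n = 3) without, with overlap (exact permutation p = 0.3). The coding share of Has1 also overlapped, at 84 ± 2.14% and 81.3 ± 2.15% (SD, n = 3 each, exact permutation p = 0.3), while the intron-keeping Has1-202 was at 0.582 ± 0.0617 TPM against 0.807 ± 0.122 (SD, n = 3 each), without overlap (exact permutation p = 0.1).

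Neither hyaluronidase passed the test for the drug. Hyal1 measured 17.3, 15.1 and 15.6 CPM with 5-ASA (log2 fold change -0.13, 95% interval -0.29 to 0.03), overlapping with Ad-OSCAR. Hyal2 measured 37.2, 33.1 and 39.4 CPM (log2 fold change -0.08, 95% interval -0.22 to 0.05), also overlapping. In TPM, however, Hyal2 was 33.6, 38 and 41.1 with the drug and 47, 47.6 and 47.4 without, apart in every culture. Here limma on log2(TPM + 0.1) called this fall (log2 fold change -0.34, adjusted p = 0.0208). With length taken into account, edgeR did not (log2 fold change -0.24, adjusted p = 0.0532), and 2 of 19 alternatives, both limma on log2 TPM, called it. Beside this, the weighted length of Hyal2 was 1731 ± 181 bases (SD, n = 3) with the drug and 1562 ± 33.3 (SD, n = 3) without, with overlap, and the median of all genes moved by -0.10 on the log2 TPM scale. The part of each in the Hyal2 value was not tested.

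**Figure D3:**
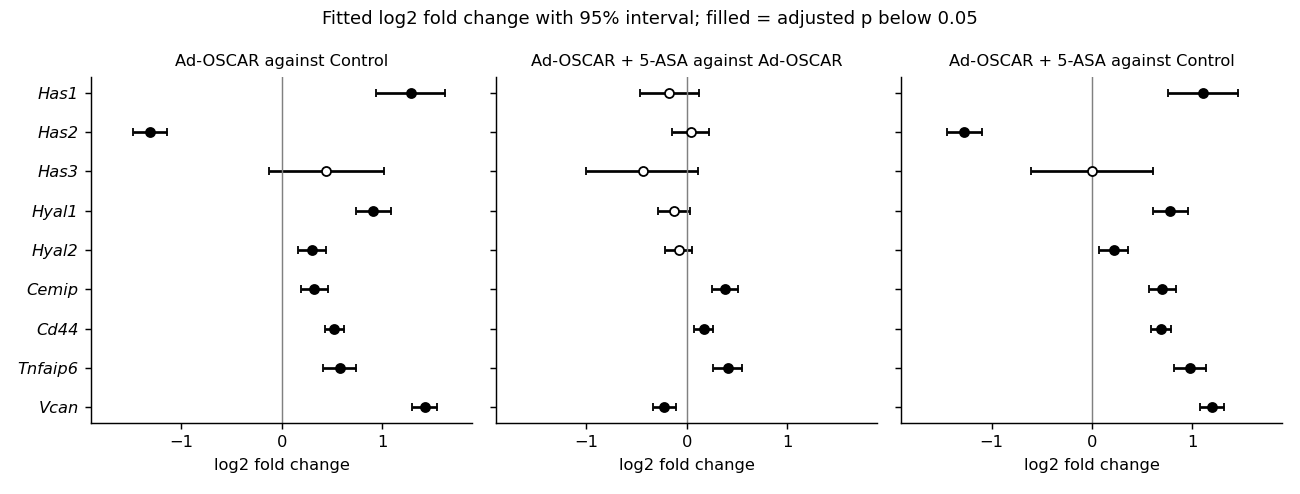
Fitted log2 fold changes (horizontal axes) of the 9 genes in the 3 comparisons, with 95% intervals, filled where the adjusted p was below 0.05. With OSCAR, Has2 lies at -1.31 and the 7 other filled points lie between 0.30 and 1.43, and with 5-ASA added to OSCAR no point lies beyond 0.44 in size.

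Treated cells remained far from Control. Between Ad-OSCAR + 5-ASA and Control, which shares its samples with both comparisons above, 8 of 9 genes passed at an adjusted p below 0.05 (edgeR quasi-likelihood test), against 63.2% of all genes (31.4% higher and 31.8% lower). The groups did not overlap for 7 genes, against 66.6% of all genes. Of the 9 genes, 7 passed the study's limits for comparisons with the drug, against 29.9% of all genes. Has2 was 2.42-fold lower (log2 fold change -1.27 ± 0.08 SE), Vcan 2.3-fold higher (1.20 ± 0.06 SE), Has1 2.16-fold higher (1.11 ± 0.17 SE) and Tnfaip6 1.98-fold higher (0.98 ± 0.08 SE). Hyal1, Cemip and Cd44 were higher by 1.72-fold, 1.63-fold and 1.61-fold. Hyal2 was 1.16-fold higher (adjusted p = 0.0102) with overlapping cultures, a call that held in 14 of 19 alternatives. Among others it was lost without Control culture 1 (adjusted p = 0.0672) or Ad-OSCAR + 5-ASA culture 3 (adjusted p = 0.0657) and when length was taken into account (adjusted p = 0.176). Over the alternatives its log2 fold change ranged from 0.04 to 0.28. Has3 had a log2 fold change of -0.00 (95% interval -0.61 to 0.61). In TPM, treated cells still had Vcan (185 ± 12.2, SD, n = 3) above Cd44 (155 ± 5.42), now had Cemip (12.8 ± 0.837) above Hyal1 (9.72 ± 0.705), and had Has1 (3.66 ± 0.359) and Has2 (3.38 ± 0.155) at overlapping levels.

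The other genes of the pathway were described from 6 lists with 47 genes, of which 33 had enough counts to be tested. With OSCAR, 13 rose, 16 fell and 4 did not pass, so 87.9% were called against 65.0% of all genes, with a median log2 fold change of -0.06. With 5-ASA relative to Ad-OSCAR, 7 rose and 2 fell, 27.3% against 17.8% of all genes.

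RNA of most enzymes that make the sugar precursors was lower with OSCAR. Of 7 genes, 6 fell, where 32.2% of all genes did, and 1, Uap1 (log2 fold change 0.41 ± 0.05 SE), which makes UDP-N-acetylglucosamine in the last step, rose. Ugp2, which makes UDP-glucose, fell 1.71-fold from 213 to 125 CPM (log2 fold change -0.77 ± 0.06 SE, adjusted p = 1.43e-09), and Pgm3, of the hexosamine pathway, fell 1.49-fold from 41.5 to 27.8 CPM (-0.57 ± 0.05 SE, adjusted p = 5.01e-09). For 5-ASA against Ad-OSCAR, edgeR called 0 of the 7 (2 at an unadjusted p below 0.05) and DESeq2 0. Against Control, treated cells had Gfpt2, which feeds fructose-6-phosphate into that pathway, 1.58-fold lower. These precursors also serve other glycans.

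Of 9 other genes of hyaluronan breakdown, 5 had enough counts to be tested, of which edgeR called 2 with OSCAR and DESeq2 1. Over all genes tested, edgeR called 65.0%. Cemip2, a surface protein related to Cemip, rose 1.1-fold from 43.5 to 48.1 CPM (adjusted p = 0.0293). Gusb, the lysosomal beta-glucuronidase, was at 84.4 and 81.1 CPM and did not pass with OSCAR (adjusted p = 0.286), but it was 1.1-fold lower in treated cells than in Control, at 76.7 CPM and without overlap (adjusted p = 0.0158). For the drug, edgeR and DESeq2 each called 0 of the 5, and 1 at an unadjusted p below 0.05. Hyal4, Hyal5, Hyal6 and Spam1 had 0 counts in every culture.

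Of 5 other receptors tested, 2 rose, 2 fell and 1 did not pass with OSCAR, where 32.7% of all genes rose and 32.2% fell. Tlr2, a receptor of innate immunity that can respond to hyaluronan pieces, rose 3.84-fold from 37.4 to 144 CPM (log2 fold change 1.94 ± 0.06 SE, adjusted p = 1e-14) and was 1.35-fold lower again with 5-ASA at 107 CPM (adjusted p = 4.9e-05). Hmmr, which binds hyaluronan and also acts at the mitotic spindle, fell 10.7-fold from 34.1 to 3.2 CPM (log2 fold change -3.42 ± 0.09 SE, adjusted p = 5.26e-16) and a further 1.59-fold with 5-ASA to 2 CPM (adjusted p = 0.00206). Tlr4 was at 52.8, 54 and 54.3 CPM in the 3 groups. Lyve1, the hyaluronan receptor of lymph vessels, had at most 4 counts in any culture.

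The proteoglycans and link proteins that share hyaluronan with versican went the other way from Vcan in all but 1 case. Of 5 tested, 4 fell, where 32.2% of all genes did, and Hapln4 rose (log2 fold change 2.83 ± 0.15 SE), where 32.7% of all genes did. Acan, which encodes aggrecan, fell 83.2-fold from 2321 to 27.9 CPM (log2 fold change -6.38 ± 0.07 SE, adjusted p = 2.46e-21) and was 1.21-fold higher with 5-ASA at 33.7 CPM (adjusted p = 0.00496). Bcan, which encodes brevican, fell 11.1-fold from 3.2 to 0.286 CPM (adjusted p = 5.52e-09), with 7 to 8 counts per Ad-OSCAR culture. Hapln1, the link protein that locks aggrecan to hyaluronan, fell 2.13-fold from 481 to 226 CPM and was at 226 CPM with 5-ASA as well.

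Of 7 listed partners of TSG-6, 3 had enough counts to be tested. All 3 were called higher with 5-ASA than without, where 10.4% of all genes were. Ptx3, which encodes the pentraxin that crosslinks hyaluronan with TSG-6 help, rose 1.33-fold with OSCAR from 839 to 1112 CPM (adjusted p = 5.46e-07) and 1.53-fold with the drug to 1698 CPM (log2 fold change 0.61 ± 0.05 SE, adjusted p = 1.04e-07). Itih5, related to the protein chains that TSG-6 transfers, rose 1.19-fold and then 1.34-fold, from 56.3 to 66.8 to 89.8 CPM. Itih2, 1 of those chains, fell slightly with OSCAR from 128 to 118 CPM and was at 145 CPM with the drug (adjusted p = 0.00015). Tnfaip6, Ptx3 and Itih5 each rose at both steps.

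Of 8 tested proteases that cut versican or CD44, 5 rose and 3 fell with OSCAR, where 32.7% of all genes rose and 32.2% fell. With 5-ASA relative to Ad-OSCAR, edgeR called 3 of the 8, all higher, where 10.4% of all genes were called higher. Adamts5 rose 2.41-fold from 481 to 1158 CPM (log2 fold change 1.27 ± 0.04 SE, adjusted p = 5.14e-15) and 1.23-fold with the drug to 1425 CPM (adjusted p = 3.14e-05). Adamts4 rose 3.61-fold from 10 to 36.3 CPM (adjusted p = 1.86e-13) and Adamts1 1.93-fold from 292 to 562 CPM. With the drug Adamts4 was 1.14-fold higher, with overlapping cultures (adjusted p = 0.0444). Adamts9 fell 1.42-fold with OSCAR and was 1.16-fold higher with the drug, and Mmp14, which sheds CD44, rose 1.57-fold from 288 to 452 CPM.

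**Figure D4:**
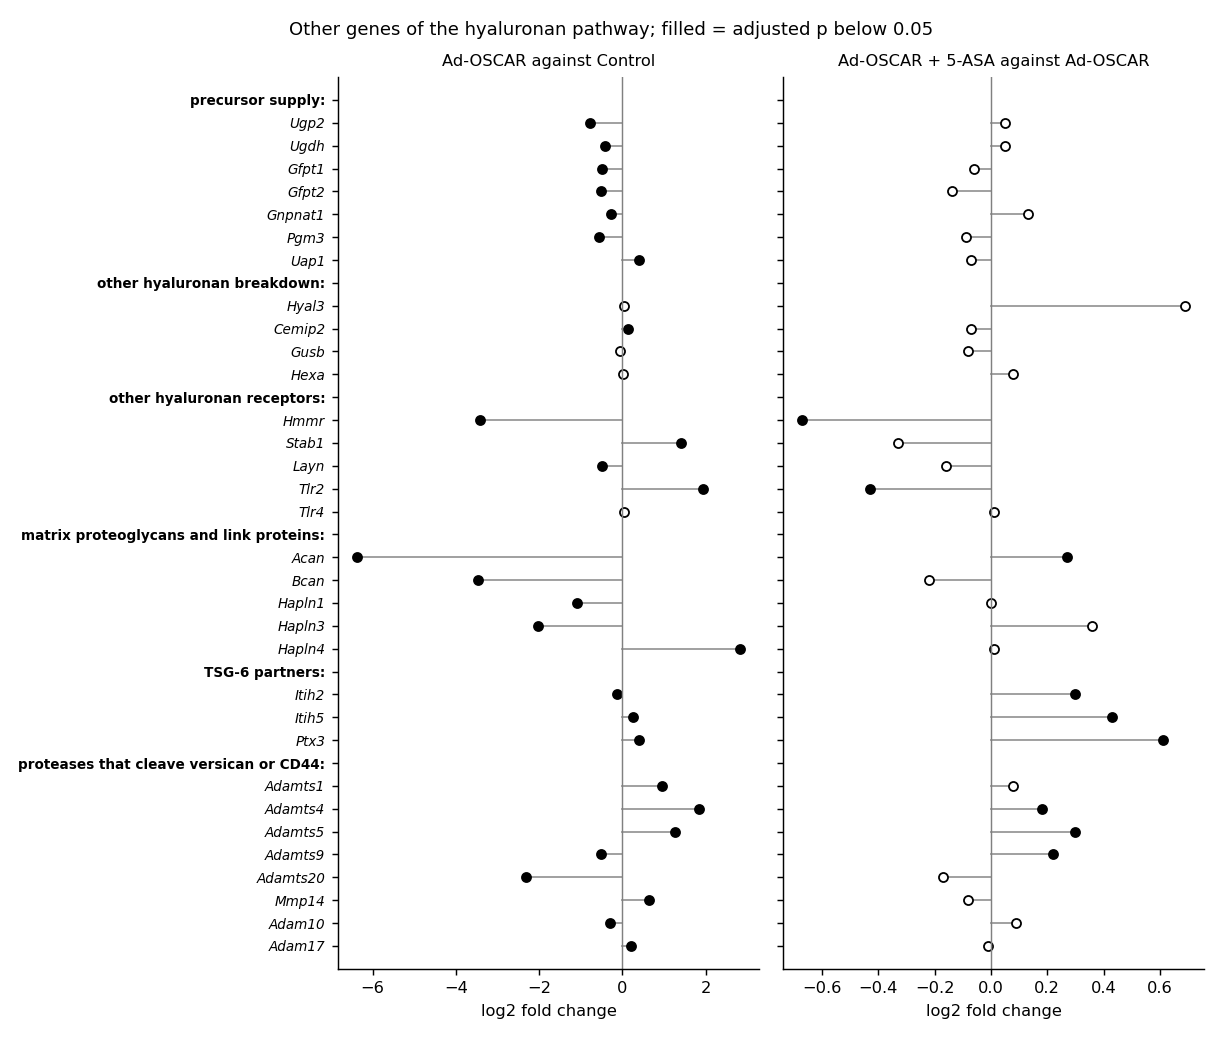
Log2 fold changes (horizontal axes, which differ in scale) of all but 1 of the 33 other tested pathway genes by list, left for Ad-OSCAR against Control and right for Ad-OSCAR + 5-ASA against Ad-OSCAR, filled where the adjusted p was below 0.05. On the left most precursor and proteoglycan genes lie below 0, and on the right the TSG-6 partners lie at 0.30 to 0.61 and Hmmr at -0.67.

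The genes whose log2 CPM went most like 8 of the members over the 9 cultures are given as a description, since the cultures fall into 3 groups that set most of the likeness. Pearson's r was 0.998 for Has2 with Fam57a, 0.998 for Cd44 with Gpd2, 0.998 for Vcan with Fbxl5, 0.996 for Tnfaip6 with Mllt3, 0.996 for Hyal1 with Npepps and 0.995 with its overlapping neighbour Naa80. It was 0.984 for Hyal2 with Aars2, 0.982 for Cemip with Tmem119, and lowest for the sparsely counted Has3, at 0.922 with Pdzrn4.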

How the data were processed

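The authors deposited estimated counts and TPM per gene, with gene lengths, for each of 9 cultures. According to the methods of the study, the authors checked reads with FastQC, trimmed them with BBDuk and aligned them to GRCm38 with STAR 2.7.1a. Read counts came from RSEM 1.3.1, which divides reads shared by genes, and the methods do not say how the TPM were made. The deposited estimated counts carry no scaling between libraries, and the TPM are scaled to transcript length and library. The reporting summary of the study names another RSEM version for the TPM. The counting's strand setting is not given in the sources used here. Of 55471 listed identifiers, 55144 had a symbol in GENCODE M21 (GRCm38).

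Counts were rounded and tested in R 4.3.3 with edgeR 4.0.16 (TMM, filterByExpr by group, quasi-likelihood test, 15362 genes, all 9 cultures, group as the only factor, Benjamini-Hochberg adjustment). A standard error is that of the fitted log2 fold change, and fold changes against low counts depend on the fit. No 2 cultures of a group agreed within sampling noise. Levels are CPM after TMM scaling. The share of Has1-201 was computed from the deposited weighted length and both annotated lengths. Single values were compared with two-sided exact permutation tests (3 against 3, smallest p = 0.1). Figures were drawn with matplotlib 3.10.9. The steps were tested on simulated counts.

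The members and lists were chosen with earlier results of these data known. All 9 members are named, and from each other list up to 2 called genes with the largest change per comparison and a mean of at least 1 CPM. Uap1, Hapln1, Hapln4, Itih2, Adamts1, Mmp14, Tlr4, Lyve1 and the genes at 0 counts were named after their values were seen. Some results of this rule are not reported here. Alternatives were DESeq2 1.42.0, RLE scaling, no filter, a minimum of 10 counts in each culture, fits of the compared groups alone, robust fitting, effective length as an offset, limma 3.58.1 on log2 TPM with 0.1 or 1 added, the replicate number as a block, and each culture left out.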

Additional observations from a re-analysis of the deposited data

How the results depend on the processing

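Over 19 alternatives per gene and comparison, no called gene changed direction. The number of the 9 genes called stayed at 8 with OSCAR under all of them, and ranged from 3 to 4 for 5-ASA against Ad-OSCAR and from 7 to 8 for treated cells against Control. With effective length as an offset, and with limma on log2(TPM + 0.1), 2 genes (Has1 and Vcan) passed the study's limit with OSCAR in place of 0. The mean weighted length of both genes was shorter with OSCAR, for Vcan with overlap, and the part of length in this difference was not tested. With CPM in place of TPM, the Has1 share of the synthases rose by 27.4 percentage points with OSCAR and by 24.8 in treated cells against Control, in place of 39.5 and 36.8. Leaving out each culture gave 38.0 to 41.0 and 35.0 to 37.9 points. Called pathway genes ranged from 25 to 29 with OSCAR, 7 to 10 for the drug and 26 to 30 for treated cells against Control. limma on TPM shifted the median of all genes by -0.10 in the drug comparison, so its Cd44 value of 0.06 is higher than that median. Same-numbered cultures did not deviate together (r from -0.0724 to 0.0402 over 9 pairs). With the replicate number as a block, 8, 4 and 8 of the 9 genes were called in the 3 comparisons, as without it, and 29, 8 and 29 pathway genes. Depth limits Has3 and the transcripts of Has1, and 3 cultures per group limit the exact tests.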
